A study of Mus musculus with 6 samples.

Results

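The unfolded protein response genes described here are 10 genes chosen by name from the 53110 genes listed: Hspa5, Xbp1, Ern1, Atf6, Herpud1, Dnajb9, Sdf2l1, Pdia4, Hsp90b1 and Calr. All 10 were found in the table and all 10 passed the filter on low values. They were measured by RNA-seq in neural stem cells (NSCs) derived from mouse cortex and grown at 21% O2 on Matrigel with bFGF and EGF. The table holds 3 WT and 3 Setd5+/- samples. The Setd5+/- cells carry a heterozygous mutation of Setd5, a gene for a chromatin protein of the SET-domain family, and the table's column names give 1 mutant clone and 1 library for each genotype. The comparison between the genotypes asks which transcripts differ in NSCs with reduced Setd5 dosage under ambient oxygen.

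The unfolded protein response is the programme by which a cell adjusts the folding capacity of the endoplasmic reticulum (ER) when unfolded proteins accumulate there. It is run by 3 sensors in the ER membrane, which are IRE1 (encoded by Ern1), ATF6 and PERK (encoded by Eif2ak3), and the chaperone BiP (encoded by Hspa5) binds their lumenal parts. IRE1 splices the mRNA of the transcription factor XBP1, ATF6 is cut in the Golgi to free a transcription factor, and PERK phosphorylates eIF2α and thereby favours translation of ATF4. The targets of these branches include chaperones (Hspa5, Hsp90b1, Calr), folding enzymes and cochaperones (Pdia4, Dnajb9, Sdf2l1) and the degradation factor Herpud1. RNA-seq counts by gene measure neither the splicing of Xbp1 nor the cleavage of ATF6.

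The values are normalized counts, which are reads on a gene divided by the size factor of the sample, and 1 read was worth 0.827 to 0.829 normalized counts in WT and 1.19 in Setd5+/-. The 3 samples of a genotype differed by no more than random sampling of one library, if both ends of each read pair were counted. The chi-square of reads per degree of freedom was 1.948 in WT and 1.925 in Setd5+/-. Halved to stand for read pairs, it was 0.974 and 0.962, and the counting of both ends was assumed, not tested. Pairs of samples from different genotypes differed 34.6 to 34.8 times as much as pairs within one. They were therefore counted as 1 library per genotype, with 29994955 reads on genes in WT and 21428650 in Setd5+/-. No test between the genotypes was possible, and genotype, clone, library, sequencing index and lane cannot be told apart. Each difference is given as a log2 fold change of the means (pseudocount of 1) with a 95% interval that covers counting error only, and a gene is called higher or lower at a fold of at least 1.5. After genes averaging under 10 normalized counts were set aside, 16264 remained to be tested. Of these, 19.7% were higher and 15.5% were lower in the Setd5+/- library by this rule (35.2% in either direction), and the median log2 fold change was −0.02.

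The targeted gene was lower in the Setd5+/- library but within the 1.5-fold limit. Setd5 had 2498, 2749 and 2780 normalized counts in WT and 2151, 1990 and 2055 in Setd5+/-, which is −0.37 as log2 fold change (−0.44 to −0.31). The count covers the whole gene and does not separate the edited allele. Neural stem cell markers were detected in both libraries, at levels that varied widely from gene to gene. Sox2 was at 3119 normalized counts in WT and 2732 in Setd5+/-, and Nes was at 2378 and 1951. Among the 8 listed, Vim (log2 fold change 0.60) was higher, and Fabp7 (−1.65) and Prom1 (−2.92) were lower. Fabp7, the highest of the 8 in WT, went from a mean of 36020 there to 11490 in Setd5+/-. Prom1 was low in both libraries, with means of 24.57 (89 reads) for WT and 2.382 (6 reads) for Setd5+/-. Markers of other neural cells also differed between the libraries. The summed level of 5 neuronal markers was 338 normalized counts in WT and 80.2 in Setd5+/-. Most of the WT sum was Dcx, at 248.5 in WT and 26.21 in Setd5+/-, while Tubb3 stayed within 1.5-fold (62.94 and 48.45). Rbfox3 and Stmn2 were at 0 in Setd5+/- but already low in WT, at 7.455 and 0.5521. The sum of 5 oligodendrocyte lineage markers was 11730 in WT and 7034 in Setd5+/-, with Sox10 at 298 and 1.59. The sum of 4 astrocyte markers was 6144 in WT and 8557 in Setd5+/-, with Gfap at 17.1 and 263. The 4 proliferation markers summed to 3987 in WT and 5335 in Setd5+/-, while Pcna among them was lower (101 and 29.4), the only one of the 4 past 1.5-fold. The 6 mesenchymal markers summed to 16.01 in WT and 7.15 in Setd5+/-, the 3 endothelial ones had 7.45 and 19.9, and the 4 microglial ones had 98.9 and 58.0, with Cx3cr1 and C1qa at 0 in both. The part of these cell type differences in the results that follow was not tested, and in bulk RNA fewer cells of a type and less RNA per cell cannot be told apart.

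The 10 genes did not move in one direction. Atf6, Herpud1 and Ern1 were higher in the Setd5+/- library by at least 1.5-fold, Calr and Hspa5 were lower, and Xbp1, Dnajb9, Sdf2l1, Pdia4 and Hsp90b1 stayed within that limit. These 3 of 10 higher and 2 of 10 lower stand beside the 19.7% and 15.5% of all tested genes, shares near that background for a list of 10 genes. At a fold of at least 2 the counts were 2 higher (Atf6 and Herpud1) and 0 lower, beside 10.3% and 6.14% of all tested genes. The median log2 fold change of the members was 0.15. In 8 of the 10 members the 3 WT samples and the 3 Setd5+/- samples did not overlap, which held for 65.3% of all tested genes.

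**Figure D1:**
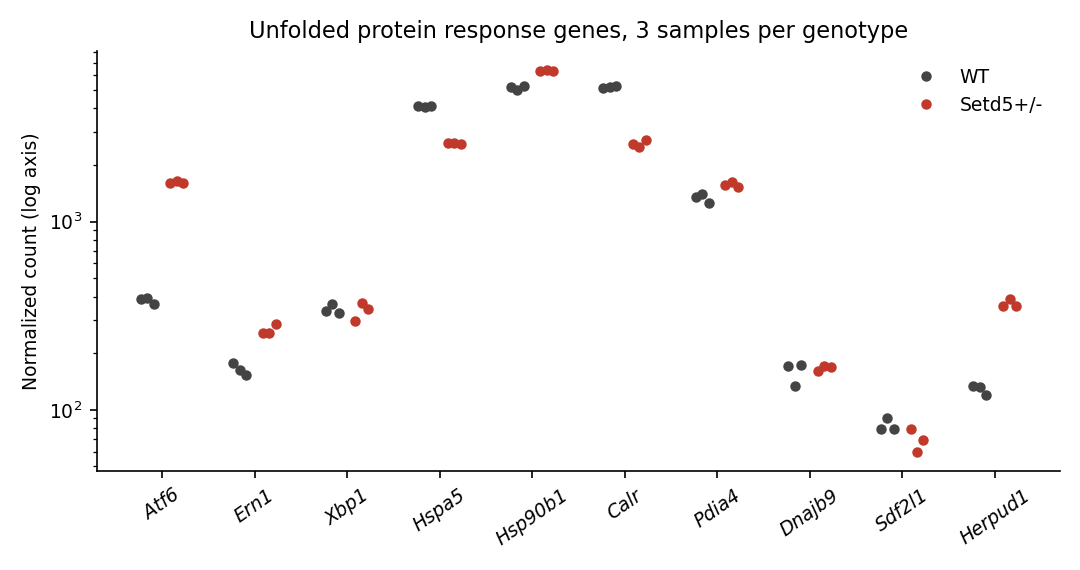
Normalized counts (log axis) of the 10 unfolded protein response genes, with 1 point for each of the 3 WT (grey) and 3 Setd5+/- (red) samples, which are parts of 1 library per genotype. The points lie far apart for Atf6, Herpud1, Calr and Hspa5 and are mixed for Xbp1 and Dnajb9.

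The sequences before the transcription start are shown for 4 members that hold the ER stress response element (ERSE) or its shorter form ERSE-II. The ERSE is the site through which ATF6 and XBP1 are known to act with the CCAAT-binding factor NF-Y. Promoters from RefSeq (GRCm38.p6) were found for 9 of the 10 members, all but Atf6. The ERSE was searched as CCAAT and CCACG with any 9 bases between them, its shorter form ERSE-II as ATTGG and CCACG with any 1 base between them, and the unfolded protein response element (UPRE) as TGACGTGG, on both strands of the window from 250 bases before to 50 bases after the start. An ERSE was found in the windows of 37 of 27025 genes (0.137%), among them Hspa5, Calr and Hsp90b1. An ERSE-II was found in 12 genes (0.0444%), among them Herpud1. The UPRE was found in 193 genes (0.714%) and in none of the 9 members. These 4 sequences are the 250 bases before the start, written 5′ to 3′ along the strand of the gene, with the ERSE or ERSE-II in capitals. The Hspa5 window is chr2:34771840-34772089 on the plus strand, and its site lies 65 to 47 bases before the start. The Calr window is chr8:84846932-84847181 on the minus strand, with the site in reverse orientation 162 to 144 bases before the start. The Hsp90b1 window is chr10:86705445-86705694 on the minus strand and has 2 sites, at 212 to 194 bases before the start and, in reverse orientation, at 107 to 89. The Herpud1 window is chr8:94386179-94386428 on the plus strand, with its site 52 to 42 bases before the start.
Hspa5: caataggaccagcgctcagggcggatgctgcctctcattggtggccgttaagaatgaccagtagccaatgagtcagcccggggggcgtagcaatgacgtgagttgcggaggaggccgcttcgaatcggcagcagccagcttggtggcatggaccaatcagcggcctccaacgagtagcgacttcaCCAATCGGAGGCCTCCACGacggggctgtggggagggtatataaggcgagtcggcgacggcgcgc
Calr: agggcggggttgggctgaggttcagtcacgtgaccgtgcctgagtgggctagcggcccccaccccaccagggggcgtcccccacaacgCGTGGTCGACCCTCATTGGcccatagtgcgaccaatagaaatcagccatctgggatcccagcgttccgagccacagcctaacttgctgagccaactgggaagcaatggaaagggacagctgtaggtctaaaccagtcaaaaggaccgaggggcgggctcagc
Hsp90b1: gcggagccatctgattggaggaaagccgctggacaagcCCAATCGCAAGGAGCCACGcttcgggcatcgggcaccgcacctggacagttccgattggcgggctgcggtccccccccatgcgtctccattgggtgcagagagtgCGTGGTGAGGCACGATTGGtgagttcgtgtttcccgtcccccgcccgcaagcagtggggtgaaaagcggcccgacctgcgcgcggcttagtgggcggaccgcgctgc
Herpud1: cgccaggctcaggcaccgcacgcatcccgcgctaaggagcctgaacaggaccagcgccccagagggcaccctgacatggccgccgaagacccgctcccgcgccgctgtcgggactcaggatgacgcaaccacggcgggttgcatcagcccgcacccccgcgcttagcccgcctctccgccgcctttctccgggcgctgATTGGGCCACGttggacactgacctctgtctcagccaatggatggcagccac

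The 4 genes with these elements did not share a direction. Hspa5 and Calr were lower in the Setd5+/- library, Hsp90b1 was within 1.5-fold and Herpud1 was higher. Of the 49 genes with either element, 41 were matched by name to genes with values, and 24 of these passed the filter on low values. The median log2 fold change of the 24 was 0.18, with 5 higher and 6 lower. Without the 4 members, 4 of 20 were higher and 4 of 20 were lower, near the 19.7% and 15.5% of all tested genes. Those 20 include Canx, the membrane-bound lectin chaperone calnexin, at 0.65, Pdia6, a protein disulfide isomerase, at 0.03, and Syvn1, the ubiquitin ligase HRD1 of ER-associated degradation, at −0.30, which were named after their values were seen. A match of letters is a description of the sequence and shows no binding in these cells. The letters given for each element were searched exactly, so near matches were not counted.

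Of the sensors, Atf6 differed most. Atf6 (chr1:170704674-170867771, minus strand, GRCm38/mm10) had 391, 394 and 367 normalized counts in WT. In Setd5+/- it had 1599, 1640 and 1597. Every Setd5+/- sample was above every WT sample, by over 4-fold in the means. The log2 fold change was 2.07 (1.95 to 2.19), a 4.19-fold higher level, and 97.3% of all tested genes had an equal or smaller value. Ern1 (chr11:106394650-106487852, minus strand), which encodes the kinase and endoribonuclease IRE1α, was the other sensor above 1.5-fold. It had 178, 163 and 153 normalized counts in WT and 257, 257 and 287 in Setd5+/-. The samples did not overlap, and the level was 1.62-fold higher, or 0.69 in log2 fold change (0.47 to 0.91). The lower bound of that interval falls inside the 1.5-fold limit.

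Xbp1, whose mRNA is the substrate of IRE1, had similar counts in both libraries. Xbp1 (chr11:5520659-5525893, plus strand) had 337, 364 and 326 normalized counts in WT and 298, 372 and 342 in Setd5+/-. The samples overlapped, and the log2 fold change was −0.02 (−0.20 to 0.15). At this depth a change of the gene's total level by 1.5-fold in either direction lies outside the counting interval. The count does not separate the spliced from the unspliced mRNA, so it gives no measure of IRE1 activity.

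Of the 3 lumenal chaperones, Hspa5 and Calr were lower and Hsp90b1 stayed within 1.5-fold. Hspa5 (chr2:34771970-34777547, plus strand), the Hsp70 chaperone BiP, had 4121, 4084 and 4098 normalized counts in WT and 2611, 2623 and 2599 in Setd5+/-. The 2 sets of values lie far apart, and the small spread within each set is that of parts of 1 library. Its level was 1.57-fold lower, with a log2 fold change of −0.65 (−0.71 to −0.59). Calr (chr8:84841850-84846934, minus strand), which encodes the calcium-binding lectin chaperone calreticulin, had 5164, 5173 and 5288 normalized counts in WT and 2597, 2509 and 2726 in Setd5+/-. This was the largest decrease from WT among the 10 genes, 1.995-fold, with a log2 fold change of −0.996 (−1.05 to −0.94). Only 6.20% of all tested genes had an equal or lower value. Hsp90b1 (chr10:86690209-86705509, minus strand), the Hsp90 chaperone GRP94, went the other way, with 5183, 5017 and 5264 normalized counts in WT and 6307, 6413 and 6303 in Setd5+/-. Its samples did not overlap, and its log2 fold change of 0.30 (0.26 to 0.34) was above 0 and short of 1.5-fold.

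Calr and Hsp90b1 share sequence with other listed genes, and the sources used here do not state whether reads were counted by strand or how reads with several matches were treated. Calr-ps is 92.5% identical to Calr over 495 bases, and it counted 738 in WT against 367 in Setd5+/-, lower like that of Calr. The gene 1810014B01Rik shares 415 exon bases with Hsp90b1 on the opposite strand and had 1300 and 1583 normalized counts. Reads could have been split between these genes and the members, so the levels of Calr and Hsp90b1 are uncertain to that extent.

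The folding enzyme and the cochaperones stayed within 1.5-fold. Pdia4 (chr6:47796141-47813430, minus strand), the disulfide isomerase ERp72, had 1352, 1409 and 1261 normalized counts in WT and 1572, 1627 and 1533 in Setd5+/-. The samples did not overlap, and the log2 fold change was 0.23 (0.15 to 0.32). Dnajb9 (chr12:44205559-44210326, minus strand), the BiP cochaperone ERdj4, had 171, 134 and 173 normalized counts in WT and 161, 170 and 169 in Setd5+/-. Those values overlapped, with a log2 fold change of 0.07 (−0.19 to 0.32). Gm6568 is 93.3% identical to Dnajb9 over 697 bases and had 27.6 and 34.2 normalized counts, so reads could also be shared there. Sdf2l1 (chr16:17130138-17132383, minus strand), a partner of the ER DnaJ proteins, had the lowest counts of the 10, at 78.8, 91.0 and 78.7 in WT and 78.7, 59.5 and 69.1 in Setd5+/-. The highest Setd5+/- sample lay next to the lowest WT sample, and the interval of its log2 fold change of −0.26 (−0.63 to 0.11) spans 0.

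Herpud1 was higher by more than any member except Atf6. Herpud1 (chr8:94386438-94395377, plus strand) encodes an ER membrane protein of the degradation complex around HRD1. It had 134, 131 and 119 normalized counts in WT and 358, 389 and 357 in Setd5+/-. All Setd5+/- values were above all WT values, and the level was 2.85-fold higher with a log2 fold change of 1.51 (1.29 to 1.73). Placed by their own digits alone, without the deposited mean, 1 Setd5+/- value of this gene is 10 times too low and the log2 fold change is 1.02. Herpud1 and Calr lie on the same chromosome and differed in opposite directions, and the median log2 fold change of the 866 tested genes of chromosome 8 was −0.03.

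**Figure D2:**
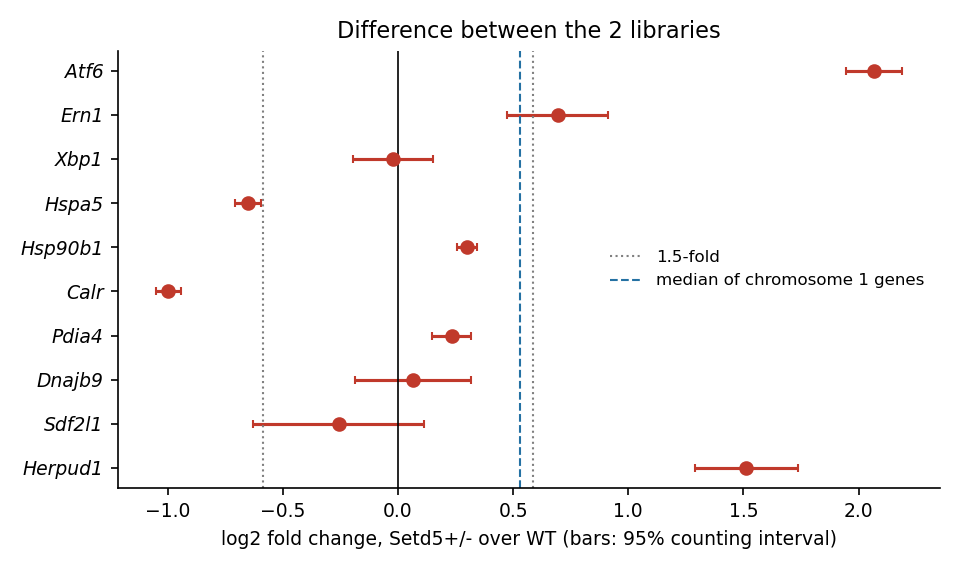
Log2 fold change of each gene between the Setd5+/- and WT libraries, with 95% counting intervals. Dotted lines mark 1.5-fold, and the dashed line marks the median of the tested genes on chromosome 1, where Atf6 alone among the members lies.

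The counts per kb of exon give the order of the members within a library. In WT the order was Calr (1808 normalized counts per kb), Hsp90b1 (1278), Hspa5 (970), Pdia4 (559), Xbp1 (105), Sdf2l1 (74.8), Dnajb9 (62.5), Herpud1 (55.0), Atf6 (41.6) and Ern1 (20.2). Sdf2l1 and Dnajb9, and Dnajb9 and Herpud1, did not differ beyond their counting intervals. In Setd5+/- Hsp90b1 was first at 1573 normalized counts per kb, followed by Calr at 906, Pdia4 at 658 and Hspa5 at 618. Atf6 came next at 175 and Herpud1 at 158, both above Xbp1 at 104, and Dnajb9 (65.4) and Sdf2l1 (62.4) did not differ beyond counting. Ern1 was last in both libraries. The chaperones and Pdia4 were the 4 most abundant in each library, and Atf6 moved from the ninth to the fifth place.

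**Figure D3:**
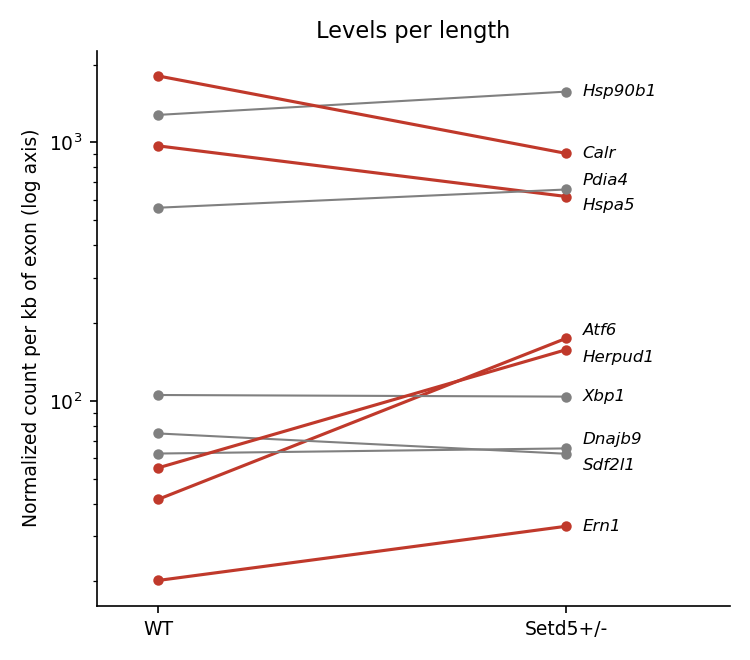
Normalized counts per kb of exon (log axis) of the 10 genes in the WT and Setd5+/- libraries, with a line joining the values of each gene. Red lines mark the 5 genes that differ by at least 1.5-fold, among them Atf6, which goes from 41.6 to 175.

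Atf6 lies on chromosome 1, and transcripts of that chromosome ran high in the Setd5+/- library. The median log2 fold change of the 1044 tested genes on chromosome 1 was 0.53, a fold of 1.44, while those of the other chromosomes lay between −0.15 and 0.02. The other 9 members lie elsewhere. The log2 fold change of Atf6 was 1.54 above the median of its chromosome, a fold of 2.90, and 54 of the 1044 genes (5.17%) had a value at or above it. The part of chromosome 1 in the higher level of Atf6 was not tested. Without Atf6, the median log2 fold change of the members was 0.07.

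The genes around Atf6 varied widely, and 2 of them reached its fold. Of the 24 tested genes within 500 kb of Atf6, 7 were higher and 3 were lower by at least 1.5-fold, with a median log2 fold change of 0.34. Over chromosome 1, 490 of the 1044 tested genes were higher and 68 were lower by this rule, and over all chromosomes 19.7% and 15.5%. The nearest ones upstream, Gm9929 and Dusp12, a dual-specificity phosphatase gene, were at 0.19 and 0.32. Olfml2b, which encodes an olfactomedin-like secreted protein and follows Atf6 downstream, was at 2.26 (1.98 to 2.54). It had 54.7, 79.4 and 70.4 normalized counts in WT and 377, 318 and 297 in Setd5+/-, so it did not overlap either. Further away, Adamts4, an extracellular protease gene, was at 2.501, Sdhc, a subunit gene of mitochondrial complex II, at −0.68, and Pcp4l1 at −2.18. These genes were named after their values were seen.

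**Figure D4:**
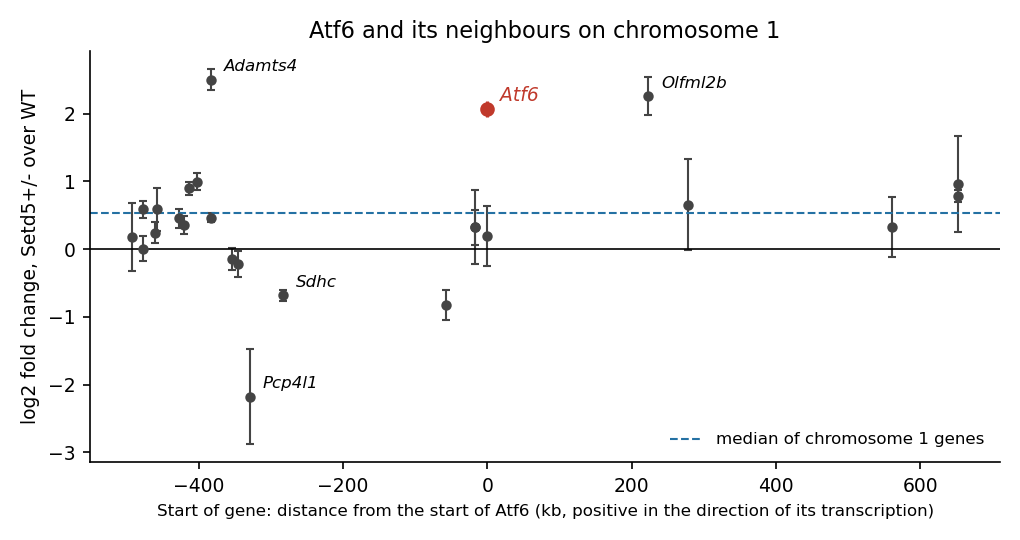
Log2 fold change (Setd5+/- over WT, with 95% counting intervals) of Atf6 (red) and of the 24 tested genes within 500 kb of either end of it, against the distance of each gene's start from that of Atf6 in kb, positive in the direction of its transcription. Olfml2b and Adamts4 reach the height of Atf6, while most neighbours lie between 0 and 1.

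Most other genes of the pathway had a log2 fold change above 0. Of 92 further ER genes in 7 lists, 87 passed the filter, of which 36 were higher and 1 was lower by at least 1.5-fold, beside the 19.7% and 15.5% of all tested genes. Their median log2 fold change was 0.46 against −0.02 over all tested genes, and 70 were above 0. The 3 genes of chromosome 1 among them left the median at 0.43 when taken out. Since the levels of neuronal, glial and proliferation markers given earlier differed between the same libraries, the part of cell type in this difference was not tested.

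Of the 10 sensors and transducers that passed, 6 were higher and none lower, beside 19.7% and 15.5% of all tested genes. Their median log2 fold change was 0.68. Mbtps1 and Mbtps2, which encode the proteases that cut ATF6, were at 0.95 and 0.75, and Atf6b, the paralog of Atf6, was at 0.61. Creb3l1, a membrane-bound transcription factor of the same design as ATF6, had the largest value of the list at 2.20, with a mean of 14.9 normalized counts in WT and 72.3 in Setd5+/-. Eif2ak3, the gene of the PERK sensor, was at −0.03 (−0.19 to 0.14).

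Of the 9 genes of the PERK branch, 5 were higher and none was lower (19.7% and 15.5% of all tested genes), with a median of 0.66. Atf4, the transcription factor translated downstream of PERK, had a mean of 1372 normalized counts in WT and 2162 in Setd5+/-, a log2 fold change of 0.66 (0.58 to 0.73). Ddit3, the gene of the transcription factor CHOP, had 131, 124 and 110 normalized counts in WT and 547, 587 and 610 in Setd5+/-, at 2.25. These values were 4.74-fold apart in the means and did not overlap. Chac1, a glutathione-degrading enzyme gene induced by ATF4, had 20 reads in WT and 648 in Setd5+/-, and Trib3, a pseudokinase gene of the same response, had 4 reads in WT and 1675 in Setd5+/-. ATF4 is also translated in response to kinases other than PERK, which these counts do not tell apart. Ppp1r15a, the phosphatase subunit GADD34 that reverses the phosphorylation of eIF2α, was at 0.13 (−0.16 to 0.42). Atf4, Ddit3 and Chac1 were named after their values were seen.

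Of the 17 ER chaperones and cochaperones that passed, 7 were higher and none lower, beside 19.7% and 15.5% of all tested genes. Their median was 0.36. The count of lower genes was 2 with scaling to the upper quartile and 0 to 2 when 1 sample was left out, since Fkbp10 (−0.58) and Fkbp2 (−0.56) lay just inside the limit. The chaperone Hyou1, an Hsp70-related exchange factor of BiP, was at 0.64 where BiP itself was at −0.65. Fkbp14, a prolyl isomerase of the ER, had the largest value at 1.24, and Manf, a secreted ER stress protein, was at −0.39. Of the 14 genes of disulfide formation, 6 were higher and none lower, beside the same 19.7% and 15.5%, with a median of 0.43. Ero1l, the oxidase that recharges protein disulfide isomerases, had 148, 134 and 144 normalized counts in WT and 526, 572 and 553 in Setd5+/-. It was 3.86-fold higher, the largest difference of that list, with no overlap of the samples.

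Of the 7 genes of the calnexin cycle, 3 were higher and none lower (19.7% and 15.5% of all tested genes), with a median of 0.52. Calnexin and calreticulin, the lectin chaperones of this cycle, went opposite ways. Canx had 5053, 5171 and 5072 normalized counts in WT and 8103, 8009 and 7953 in Setd5+/-, a 1.57-fold higher level, while Calr was 1.995-fold lower. Uggt1, the glycoprotein glucosyltransferase that returns misfolded proteins to this cycle, was at 1.57 and lies on chromosome 1.

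Of the 20 genes of ER-associated degradation that passed, 8 were higher and 1 was lower, beside 19.7% and 15.5% of all tested genes. Their median was 0.31. Sel1l and Derl1, which encode parts of the complex that Herpud1 joins, were at 0.86 and 0.94, and Syvn1 of the same complex was at −0.30. Edem3, a mannosidase-like gene on chromosome 1, had the largest value at 1.11, and Rnf5, a ubiquitin ligase gene, the lowest at −0.73 (−0.92 to −0.55). Of the 12 genes of translocation into the ER that passed, 1 was higher and none lower, both below the 19.7% and 15.5%. Without WT sample 3 or Setd5+/- sample 2, 2 were higher. The 1 gene higher with all samples was Sec11c, a signal peptidase subunit, at 0.88, and the median of the list was 0.37.

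**Figure D5:**
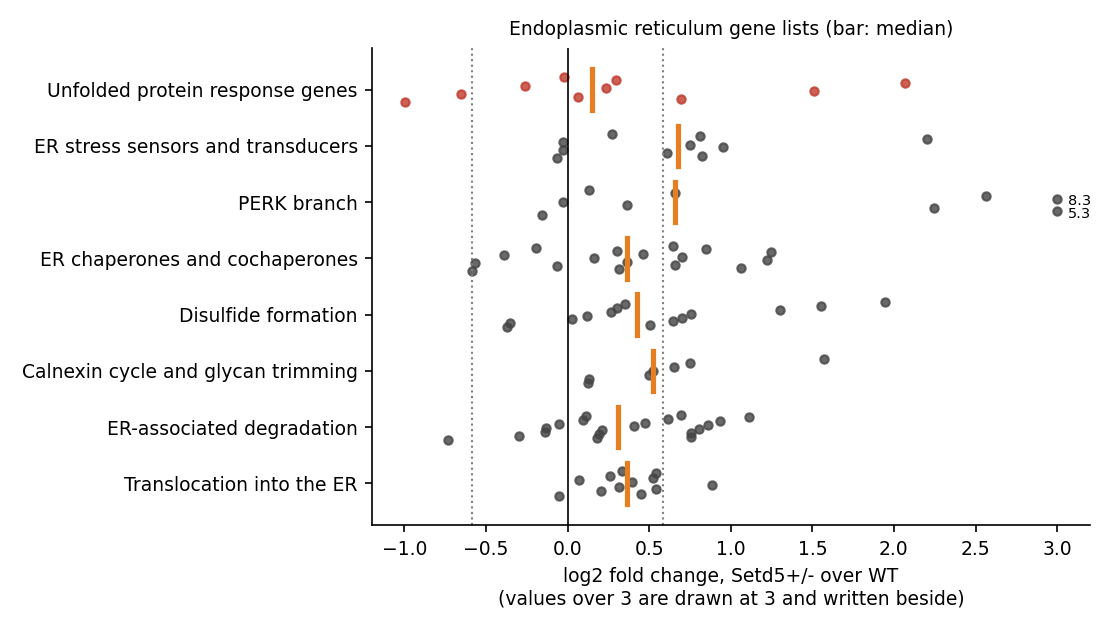
Log2 fold change (Setd5+/- over WT) of each tested gene of the members (red) and of the 7 ER gene lists (grey), with an orange bar at each median and dotted lines at 1.5-fold. All 7 lists have a median above 0.30, while the members spread from −0.996 to 2.07 around a median of 0.15.

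Longer genes were slightly higher in the Setd5+/- library. Over 12488 protein-coding genes the median log2 fold change went from −0.12 in the shortest of 4 equal classes of exon length to 0.10 in the longest. Set against the median of its own class, Atf6 stood at 1.97, Herpud1 at 1.63, Ern1 at 0.60, Hspa5 at −0.60 and Calr at −0.88, so none of the 5 changed direction. The 87 pathway genes had a median of 0.45 against their classes. Compared by the reads of the 2 libraries alone (limma, Benjamini-Hochberg, adjusted p under 0.05), 7 of the 10 members differed, 5 higher and 2 lower, beside 61.3% of all tested genes (30.3% higher and 30.9% lower). That test does not compare genotypes, and no p-value of a single gene is given for that reason.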

How the data were processed

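RNA was extracted from adherent NSCs and made into TruSeq libraries that were sequenced from both ends. Per the labels and methods, the authors trimmed reads with Trimmomatic, aligned them with Bowtie2 to mm10 and used DESeq2. The program that counted reads is not given in the sources used here. The authors deposited normalized counts, that is, reads per gene divided by a size factor of each sample, in a table whose decimal points are partly lost. The table also holds the authors' own comparison (fold changes, standard errors and p-values), which was not used. The deposited mean was used only to place decimal points.

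Low counts gave what 1 read is worth per sample, and each value was placed where it became a whole number of reads (tolerance 0.0005) and the 6 values gave the deposited mean. Of 53110 genes, 672 had no values and 3 could not be placed, and for all other 52435 the mean was matched. The mean was needed to choose the place in 26367 of these genes, where digits alone left more than 1 possibility. Depth was 9992739 to 10001698 reads on genes per WT sample and 7141070 to 7143900 per Setd5+/- sample.

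The samples of a genotype were first compared with a chi-square of their reads over genes and then counted as 1 library. The variance over the mean of reads within a genotype was 1.94, which widened the counting intervals. Log2 fold changes are on the scale of log2(normalized count + 1), which understates the change of low genes. As a description of the reads, genes with a mean of at least 10 were compared with limma 3.58.1 in R 4.3.3 (trend, Benjamini-Hochberg over 16264 genes). In simulated data over 16229 genes, made for the Setd5+/- against WT comparison, samples were drawn by random sampling of read pairs from 1 pooled profile. There limma called 84 of 106 genes changed by 2-fold, 59 of 94 changed by 1.5-fold and 42 of 16029 unchanged genes. The simulation held no spread between libraries, cultures or clones, so its false calls do not describe a comparison of 2 libraries. Exon lengths and positions came from GENCODE, promoters from RefSeq, and copies were searched with blastn 2.17.0 (at least 90% identity over 200 bases).

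The members and the lists were chosen with earlier results of these data known. Genes named were all members, Setd5 and, in each pathway list, the gene with the highest and the one with the lowest log2 fold change past 1.5-fold. Other genes were named after their values were seen. The alternatives were other pseudocounts, scalings, filters and fold limits, a replicate block, and leaving out each sample. Removing chromosome 1 from the lists was added after seeing the data.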

Additional observations from a re-analysis of the deposited data

How the results depend on the processing

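The direction of Hspa5, Ern1, Atf6, Herpud1, Sdf2l1, Pdia4, Hsp90b1 and Calr held under every pseudocount, scaling and left-out sample tried, and of the 10 members only Xbp1 (−0.10 to 0.06 in log2 fold change) and Dnajb9 (−0.05 to 0.13) crossed 0. Herpud1 ranged from 1.02, with digits alone placing the decimal points, to 1.55. At a fold of at least 2 instead of 1.5, 0 members were lower, since Calr fell just short. Over all tested genes, 10.3% were higher and 6.14% were lower at that fold. Higher by it were 1 of 10 sensors and transducers, 4 of 9 genes of the PERK branch and 3 of 17 chaperones. So were 3 of 14 genes of disulfide formation, 1 of 7 of the calnexin cycle and 0 of 12 of translocation. Of the 20 genes of ER-associated degradation, 1 was higher and 0 were lower. Chaperones lower by at least 1.5-fold numbered 2 with scaling to the upper quartile and 0 to 2 when 1 sample was left out, and translocation genes higher numbered 1 to 2. Nearest to that limit among the chaperones below 0 were Fkbp10 and Fkbp2, at −0.58 and −0.56 in log2 fold change with the authors' size factors. The samples that moved these counts were each WT sample and Setd5+/- samples 2 and 3, with 1 chaperone lower without any WT sample or Setd5+/- sample 3, 2 without Setd5+/- sample 2, and 2 translocation genes higher without WT sample 3 or Setd5+/- sample 2. With a fold of at least 1.5 required beside the adjusted p of limma, 5352 genes were called instead of 9963.

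With the replicate number as a block, 9945 genes and 7 members were called. The deviations of samples with the same number correlated at −0.01 to 0.00, so the samples share only a number, and the block changed no call of a member. Depth limits Sdf2l1 and Dnajb9 most, whose intervals span 0. The spread between cultures or clones was not measured here, and the other alternatives left each count within 1.5 times its value.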
